A study of Rattus norvegicus with 6 samples.

Results

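The probes described here are those of a one-colour Agilent array whose identifier begins with DQ7, a block of numbered rat piRNA records. They were chosen by that identifier alone, among spots that are not array controls, and no measured value entered the choice. They number 24536 of 39886 probes apart from controls, or 61.5%, with 1 spot each. The next largest block, identifiers beginning with DQ6, holds 15191 probes. The arrays measured total RNA of the testis of male Sprague-Dawley rats aged 11 weeks. The 3 control rats received corn oil by mouth and the 3 treated rats received DEHP, di(2-ethylhexyl) phthalate, a plasticizer, at 1000 mg/kg/day in corn oil. Dosing ran for 28 days and began after 1 week of acclimatization of rats that were 6 weeks old. Per the series' design text, 3 testes of 3 rats were used for each group, so a replicate is taken as 1 rat. That text pairs the groups with their treatments the other way round, so directions below rest on the title and treatment label of each sample. The question is which piRNA signals are changed in the testis of rats given DEHP.

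PIWI-interacting RNAs (piRNAs) are short single-stranded RNAs that bind PIWI proteins of the germ line. They guide these proteins to RNA of matching sequence and are best known for silencing transposons. In the mammalian testis they are abundant in male germ cells, where pachytene piRNAs are cut from long precursor transcripts of genomic clusters, so that many piRNAs come from 1 precursor. Cy3-labelled cRNA was made from 1 ug of total RNA, and signal from a short piRNA and from a longer RNA that holds its sequence cannot be told apart. In whole testis, fewer cells of a type and less RNA per cell cannot be told apart either. Of the testis markers looked up, Lhcgr, the luteinizing hormone receptor of Leydig cells, had 1 probe, which was well above background on all 6 arrays. Amh, Sox9 and Fshr of Sertoli cells and Ddx4, Piwil1 and Prm1 of germ cells had no probe assigned here, so the labelled tissue was checked against 1 marker only. The sequences and genome positions of the DQ7 piRNAs were not analysed here, and the identifier number is the only order given to them.

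The identifier numbers run from DQ700399 to DQ767590 but not evenly. Only 35 of them lie at or below DQ726183. The other 24501 lie between DQ727342 and DQ767590, where they take 60.9% of 40249 consecutive numbers. Over the block 14994 steps from one probe to the next, 61.1% of all, are steps of 1. Steps of 2 number 5763 and steps of 3 number 2277. The probes thus form 9542 unbroken runs of consecutive numbers, with a median length of 2, a longest length of 18 and 3740 runs of a single probe. Whether these 35 belong to the same deposited series as the dense range is not known. Of the 35 sparse identifiers 28 were detected, or 80.0%, against 53.6% of the dense range. Of those 28, 1 was higher in DEHP testis at the threshold given below and 0 were lower.

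A probe is called detected on an array where the scanner software marked its spot as well above background. On the control arrays 9582, 13675 and 12258 DQ7 probes were detected, and on the DEHP arrays 12650, 13410 and 13630. The groups overlapped, since control 2 lay above all 3 DEHP arrays and control 1 lay far below every other array. The controls had a mean of 11838 ± 2079 probes and the DEHP arrays one of 13230 ± 514 (SD, n = 3 each). The difference of 1392 was smaller than the spread between controls. It was 263.5 without control 1 and 2310 without control 2. As a share of the 24536 probes, detection was 48.2% ± 8.47 in controls and 53.9% ± 2.10 after DEHP (SD, n = 3 each). Control 1 was lowest for DQ6 probes too. DQ6 probes were detected at 57.6% ± 9.71 and 65.4% ± 2.01 (SD, n = 3 each), and on every array their share lay 8.01 to 11.8 percentage points above that of the DQ7 probes. The signal scale moved with these counts. In log2 units, the 75th percentile of an array was lowest on control 1, at 5.74, and highest on DEHP 2, at 6.38. Its part in the detection counts was not tested.

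**Figure D1:**
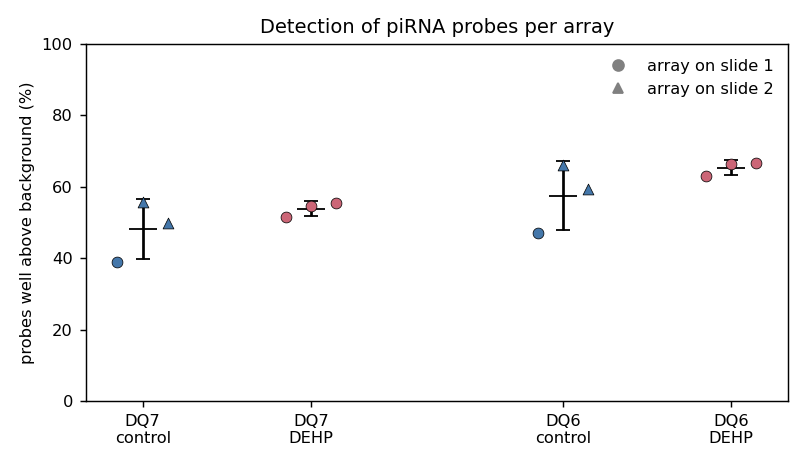
Share of DQ7 probes (left) and of DQ6 probes (right) well above background on each array, in percent of the probes of that block. Each point is 1 array, circles on slide 1 and triangles on slide 2, and the horizontal bar and whiskers give the group mean ± SD (n = 3). Control 1 is the lowest point in both blocks, at 39.1% of DQ7 probes and 47.1% of DQ6 probes.

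Over the 6 arrays, 9603 DQ7 probes (39.1%) were never detected and 9443 (38.5%) were detected on all 6. Between these, 1038 were detected on 1 array, 741 on 2, 787 on 3, 954 on 4 and 1970 on 5. Detection on at least 3 arrays, in whichever group, left 13154 probes (53.6%), against 58.0% of all probes and 64.9% of DQ6 probes. Of these, 10 had no value on some array, and 13144 were tested among 23090 probes of the whole array. More DEHP than control arrays detected 3980 DQ7 probes, fewer did so for 881, and 19675 were detected on equal numbers. Of these, 1936 probes were detected on 3 DEHP arrays and 2 controls, and 34 on 3 controls and 2 DEHP arrays.

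Detection on every array of a single group gives a bound in place of a fold change. This applied to 210 probes seen on DEHP arrays only and to 5 seen on control arrays only. The bound is the mean level of the group that detected the probe over the higher of the other group's own signal and its faintest detected signal. For the 210 probes it reached at most 1.94-fold, with a median of 1.18-fold, and 0 of them reached 2-fold. For the 5 control-only probes it ran from 1.61-fold to 3.38-fold, and 4 reached 2-fold. These probes entered the test described next only through the group that detected them, and the other group's values are not above background. Their adjusted p-values, from limma, are given as part of the record and support nothing. Levels below are log2 signals minus the 75th percentile of the same array. DQ759395 measured −1.04, −0.40 and 0.35 in controls and −2.36, −2.42 and −2.68 after DEHP. The DEHP values are all signals not above background, and the signal after DEHP was at least 3.38-fold lower (limma, adjusted p = 0.00617). DQ730189 was at least 2.23-fold lower and DQ741652 at least 2.14-fold lower (limma, adjusted p = 0.00495 for each). In the other direction, DQ763405 was at least 1.94-fold higher after DEHP, while DQ755427 and DQ746665 were each at least 1.76-fold higher (limma, adjusted p = 0.0443, 0.0439 and 0.0226).

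Each tested probe was compared between groups with limma over all 23090 probes, and called at a Benjamini-Hochberg adjusted p below 0.05. Among the 13144 tested DQ7 probes 535 (4.07%) were higher in DEHP testis, where the whole array gave 4.44%, and 966 (7.35%) were lower, where the whole array gave 6.26%. In either direction 1501 (11.4%) passed, against 10.7% of the array. The remaining 9946 probes of the array divided almost evenly, with 491 (4.94%) higher and 479 (4.82%) lower. At an unadjusted p below 0.05 (limma) the DQ7 probes divided almost evenly, with 2126 higher and 2162 lower. The remaining probes then leaned upward, with 1867 higher and 1219 lower, so neither split marks a trait of the block. No test of the difference between the blocks was made. The counts include 72 of the 210 probes seen on DEHP arrays only and the 5 seen on control arrays only. As said above, the calls of those probes support nothing. Of the 535 increases, 291 were of probes detected on all 6 arrays. Called increases had a median of 0.73 on the log2 scale and reached 2.02, or 1.54 among probes detected on all 6 arrays. Called decreases had a median of −0.80 and reached −2.97. Called increases of at least 2-fold numbered 93 (0.708% of tested DQ7 probes, against 0.741% of the array), and such decreases 274 (2.08%, against 1.69%). Both counts use the fitted difference, also for probes seen in a single group. The 93 thus include DQ763405, DQ755427 and DQ746665, seen on DEHP arrays only, whose bounds stayed below 2-fold. The median standard error of a difference was 0.17. Groups that did not overlap were found for 2479 DQ7 probes higher in DEHP testis (18.9%, against 20.6% of the array) and for 2448 lower (18.6%, against 16.9%).

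These counts depend on which arrays and slides enter. Slides were told apart by a scan identifier of the headers, which is assumed to mark them. By it, control 1 and all 3 DEHP arrays lie on slide 1 and controls 2 and 3 on slide 2. Slide 2 thus holds no DEHP array, and a difference fitted with the slide as a block is DEHP minus control 1. With the slide as a block, 0 DQ7 probes were higher and 4 lower (limma, adjusted p below 0.05), and 1127 and 1323 had an unadjusted p below 0.05, against 2126 and 2162 without the block. Within slide 1 alone, where the lone control 1 is given the spread of the DEHP arrays, 442 were higher and 819 lower. Over all 1501 called probes the median size of the change was 0.70 there, against 0.78 over all arrays. Their direction could not turn there, since in all 1501 control 1 lay beyond all 3 DEHP arrays. Without control 1 the counts over the other 5 arrays were 629 higher and 920 lower. Leaving out control 2 raised the counts to 1121 higher and 1544 lower. Without control 3 they were 53 and 297, without DEHP 1 50 and 257, without DEHP 2 10 and 170, and without DEHP 3 72 and 360. Called shares of the whole array are not given here for these settings, so the shifts mark no trait of the block. The scaling moved the balance as well, again without whole-array shares beside it. Increases made up 35.6% of the 1501 calls, 63.0% of 2078 when the percentile used only probes that all 6 arrays detected, 25.0% of 1006 after normexp background correction, and 7.77% of 2008 after centring on the median.

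The direction of calls went with detection and with signal. The median difference over the 13144 probes was 0.03, against 0.05 over all probes tested and 0.08 over DQ6 probes. Over the 9436 tested probes detected on all 6 arrays it was −0.06, with 291 higher and 927 lower. Over all 16619 probes of the array so detected the median was −0.03. Called shares of the whole array are not given here at this filter or by class of signal, so these counts mark no trait of the block. Over the 787 DQ7 probes detected on 3 arrays the median difference was 0.34, with 72 higher and 10 lower. Such probes passed the filter largely through the group in which they were high, so their count shows nothing by itself. Ranked by mean level into 10 classes of equal size, the faintest class of the 9436 probes had a median difference of 0.03, with 16 higher and 37 lower. The median fell from −0.02 in class 5 to −0.22 in class 9. In the brightest class it was −0.38, with 1 probe higher and 247 lower. Quantile normalization left that class a median of −0.04, with 79 higher and 165 lower, while within slide 1 at the 75th percentile scaling the median was −0.42. Quantile normalization makes the distributions of all arrays alike and so holds the median of a bright class near 0 by its construction. Whether the lower signal of bright probes comes from the scaling was not tested.

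**Figure D2:**
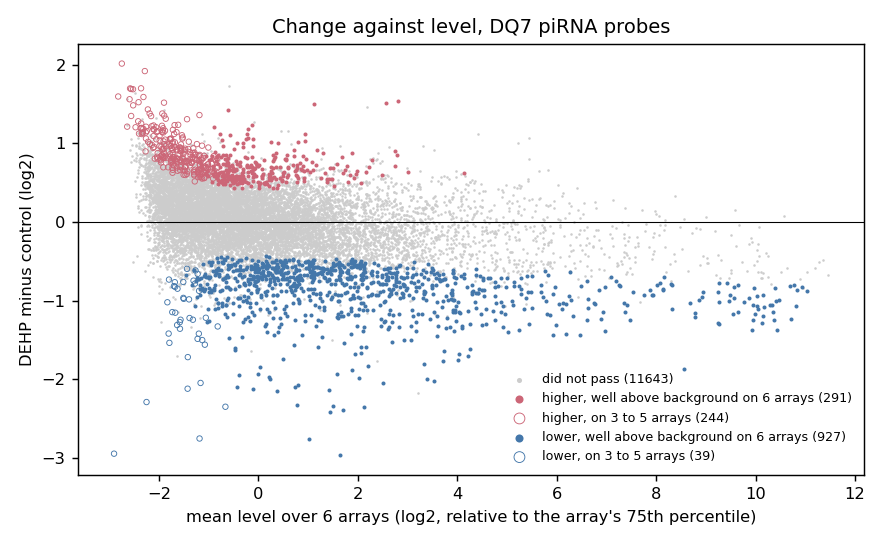
DEHP minus control difference (log2) of each of the 13144 tested DQ7 probes against its mean level over 6 arrays (log2 relative to the 75th percentile of the array). Red marks 535 probes called higher and blue 966 called lower, with open circles for probes detected on 3 to 5 arrays. Open red circles gather at the faint end and filled blue points extend to the bright end, where 1 called increase falls in the brightest of 10 classes of probes detected on all arrays.

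The largest single decreases exceeded the spread within either group. DQ760787 measured 3.28, 2.27 and 3.81 in controls and 0.77, −1.18 and 0.88 in DEHP testis. DEHP 2 was the lowest array and no DEHP value reached the controls. The difference was −2.97 ± 0.53 (SE), or 7.81-fold lower (limma, adjusted p = 0.0137). DQ765261 measured 2.75, 1.50 and 2.90 in controls and −0.04, −0.96 and −0.12 after DEHP. Here too the groups were apart and DEHP 2 was lowest, with a difference of −2.76 ± 0.36 (SE; limma, adjusted p = 0.00511). DQ732490 had tighter groups, at 2.55, 2.90 and 3.20 in controls and 0.49, 0.26 and 0.75 after DEHP. Its difference of −2.38 ± 0.19 (SE) had an adjusted p of 0.00325 in limma. DQ727441 measured 1.48, 2.02 and 2.31 in controls and −0.37, −0.49 and −0.30 after DEHP. The DEHP arrays lay close to each other and far below the controls, with a difference of −2.32 ± 0.20 (SE; limma, adjusted p = 0.00325). It was the one of the 10 largest decreases that passed with the slide as a block, at −1.86 (limma, adjusted p = 0.0321). That difference has control 1 as its only control. By the rule that named these probes control 1 lies above the DEHP arrays, so passing is no separate check.

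In other large decreases 1 control stood above the rest. DQ763258 measured 2.10, 3.91 and 1.94 in controls and 0.50, −0.06 and 0.24 after DEHP. DQ750488 measured 2.19, 4.03 and 1.80 in controls and 0.45, 0.17 and 0.38 after DEHP. Control 2 was the high array in both, and the groups did not overlap in either. Their differences were −2.42 and −2.34. The remaining 4 of the 10 largest were DQ754191 at −2.36, DQ756239 at −2.15, DQ736962 at −2.14 and DQ733457 at −2.12. Within slide 1 alone the 10 decreases ran from −3.13 to −1.46. That comparison has 1 control, which lies above the DEHP arrays by the rule that named these probes, so it is no separate check. Without DEHP 2 the number that passed was 7, without control 3 it was 8, and without DEHP 1 or DEHP 3 it was 9. DQ750488 did not pass without any one of the DEHP arrays (limma, adjusted p = 0.0577 to 0.0765), nor DQ760787 without control 3 (limma, adjusted p = 0.0593).

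Among probes chosen in the same way, the largest increases were smaller. Called increases above 1.54 were of probes not detected on all 6 arrays. DQ760294 measured 2.29, 1.42 and 2.43 in controls and 2.74, 3.77 and 4.25 after DEHP. The DEHP arrays lay above the controls but spread widely, and DEHP 1 was nearest to them. The difference was 1.54 ± 0.37 (SE), or 2.91-fold higher (limma, adjusted p = 0.0329). DQ758000 measured 2.12, 1.18 and 2.11 in controls and 2.57, 3.49 and 3.89 after DEHP, and differed by 1.51 (limma, adjusted p = 0.0279). DQ743578 measured 0.56, −0.25 and 0.77 in controls and 1.08, 2.05 and 2.45 after DEHP, and differed by 1.50 (limma, adjusted p = 0.0299). In all 3 of these probes control 2 was the lowest array and DEHP 3 the highest. DQ755274 measured −0.80, −1.52 and −1.64 in controls and −0.03, −0.06 and 0.41 after DEHP. Control 1, the control on the slide of the DEHP arrays, was the control nearest to them, and the difference was 1.43 ± 0.23 (SE; limma, adjusted p = 0.00854).

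Increases with tight groups were found further down the list. DQ766201 measured −0.73, −0.53 and −1.13 in controls and 0.30, 0.29 and 0.57 after DEHP, a difference of 1.19 ± 0.17 (SE; limma, adjusted p = 0.00618). DQ734742 measured 0.54, 0.49 and 0.07 in controls and 1.60, 1.50 and 1.36 after DEHP, a difference of 1.12 ± 0.16 (SE; limma, adjusted p = 0.00589). In both the groups were apart by more than the spread within either. The others were DQ734643 at 1.24, DQ738989 at 1.20, DQ729816 at 1.12 and DQ740871 at 1.12. Within slide 1 the 10 increases ran from 0.76 to 1.30 and 5 of them passed, and with the slide as a block 0 passed. Without control 3 or without DEHP 2 the number that passed was 3.

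**Figure D3:**
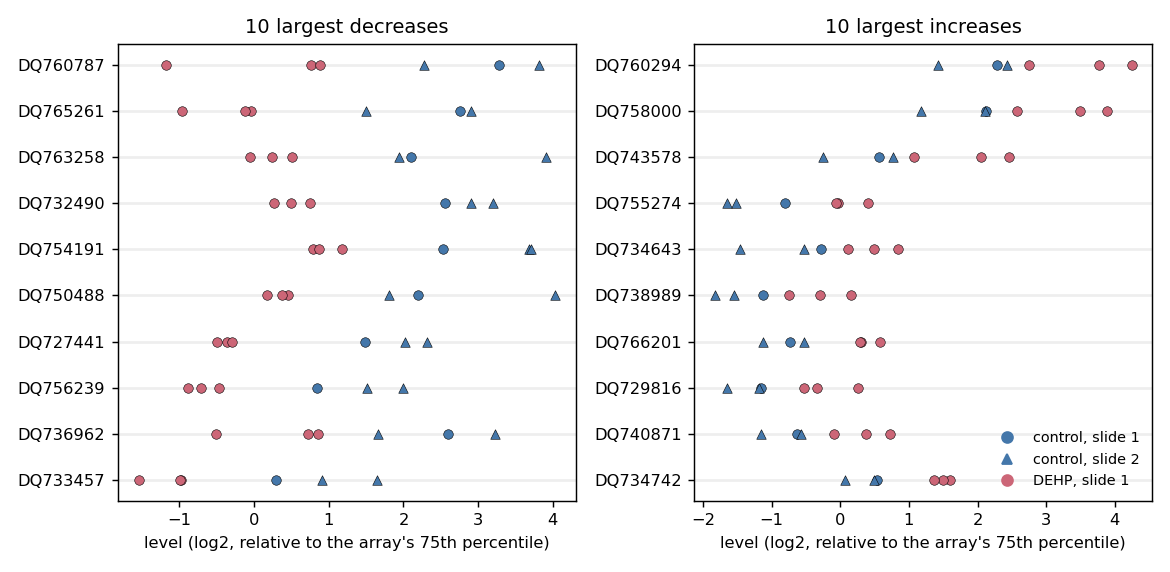
Level on each array (log2 relative to the 75th percentile of the array) of the 10 DQ7 probes with the largest decrease (left) and the 10 with the largest increase (right). Each point is 1 array, with controls in blue, as a circle on slide 1 and triangles on slide 2, and DEHP arrays in red. In all 20 probes the groups are apart, by the rule that named them, and control 1 is on the same side as the other controls.

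Some of the named probes followed each other closely over the 6 arrays. The level of DQ760294 exceeded that of DQ743578 by 1.66 to 1.79 on every array, and the SD of that gap was 0.052. The gap between DQ758000 and DQ743578 was 1.34 to 1.56 and that between DQ760294 and DQ758000 was 0.17 to 0.35. The 3 probes thus rose and dipped together on single arrays of both groups. The median SD of a gap among pairs of the 10 increases was 0.488. Among the 10 decreases it was 0.705, and the steadiest pair was DQ732490 and DQ727441, with a gap of 0.75 to 1.07 and an SD of 0.123. DQ763258 and DQ750488 kept within 0.23 of each other on all 6 arrays. These pairs were picked after their values were seen, and their identifier numbers are far apart. Whether the probes of a pair share sequence was not tested.

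Of the identifiers next in number to the 3 largest named changes each way, only DQ758001 and DQ760295 could be tested. DQ758001, next to DQ758000, was detected on all 6 arrays, at 3.38, 3.03 and 3.39 in controls and 2.80, 2.62 and 2.82 after DEHP. Its difference of −0.52 had the opposite sign to its neighbour and did not pass (limma, adjusted p = 0.0595). DQ760295, next to DQ760294, was detected on 4 arrays and differed by −0.03. DQ757999, DQ765260 and DQ763259 were detected on 0 arrays and DQ763257 on 1, so they give no change to compare. The numbers on either side of DQ760787 and of DQ743578 have no probe on the array.

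The 5 probes with the highest mean signal were DQ747123, DQ754272, DQ755301, DQ748751 and DQ766597. Signal also depends on how well a probe binds its target, so no order of abundance is drawn from it. DQ747123 measured 12.03, 11.31 and 12.04 in controls and 11.29, 11.00 and 11.07 after DEHP. Control 2 lay close to the DEHP arrays, and the difference of −0.67 did not pass (limma, adjusted p = 0.105). DQ766597 measured 11.62, 11.10 and 11.69 in controls and 10.83, 10.43 and 10.52 after DEHP, a difference of −0.88 (limma, adjusted p = 0.0438). After quantile normalization it was −0.17 and did not pass. The other 3 differed by −0.58 to −0.48 and did not pass. After quantile normalization their sign was positive, at 0.09 for DQ754272, 0.06 for DQ755301 and 0.05 for DQ748751, again without passing. That procedure sets each value from its rank on the array alone. Among the brightest probes it holds changes near 0, so no direction is read from any of these values.

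Control arrays were less alike than DEHP arrays. Over the 9436 tested probes detected on all arrays the median SD was 0.207 in controls and 0.136 after DEHP, and the control SD was the larger in 6666 of them (70.6%). Controls 2 and 3, on 1 slide, had a median SD of 0.195, and controls 1 and 3, on different slides, had 0.141. Over all 13144 tested DQ7 probes the arrays of the DEHP group correlated at r = 0.986 to 0.991, and controls at 0.974 to 0.984. Between groups, control 1, on the slide of the DEHP arrays, correlated with them at 0.972 to 0.979, above each value of the controls on slide 2, at 0.956 to 0.971. These are correlations across probes that share an array, and probes are not replicates.

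Single arrays carried their own bright probes. Control 2 lay at least 2 log2 units above all 5 other arrays for 19 tested DQ7 probes and at least 1 unit above them for 121. The matching numbers were 4 and 14 for control 1, 0 and 1 for control 3, 1 and 8 for DEHP 1, 2 and 7 for DEHP 2, and 0 and 5 for DEHP 3. This bears on the 4 decreases that passed with the slide as a block, which are named here after their values were seen. One was DQ727441. The other 3, DQ738980, DQ753093 and DQ764583, were high on control 1 alone, which is the only control on slide 1. DQ753093 measured 1.71 on control 1, −1.32 and −1.46 on the other controls and −1.43, −1.27 and −1.48 after DEHP. Its blocked difference of −3.10 therefore rests on 1 array, and without the block it was −1.04 and did not pass (limma, adjusted p = 0.312). DQ738980 and DQ764583 likewise did not pass without the block (limma, adjusted p = 0.373 and 0.146).

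Neighbouring identifiers were next compared, to see whether probes close in number were close in signal. There were 14994 pairs with numbers that differ by 1, and in 4336 of them both probes were tested. Their mean levels correlated at r = −0.0023 and their DEHP minus control differences at r = 0.0152. At differences in number of 2, 5, 10, 20, 50, 100 and 1000, r stayed between −0.0256 and 0.0323 for level and between −0.0341 and 0.0183 for change. These are descriptions over pairs of probes on the same 6 arrays. The correlation was near 0 at each of these differences in number, for level and for change. Both members of a neighbour pair changed in the same direction in 51.3% of pairs. Both were called higher in 5 pairs, both lower in 23 and in opposite directions in 31. Over the differences in number from 1 to 1000 these counts ran from 4 to 10, from 17 to 30 and from 22 to 31.

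Detection gave the same picture. The next identifier was detected in 54.4% of cases where the first was detected and in 53.1% where it was not. Neighbours in number lay far from each other on the slide, at a median distance of 162 rows and columns. Neighbours on the slide itself were slightly more alike than neighbours in number. Their differences correlated at r = 0.0437 for the next row and 0.0359 for the next column, and what was left of single arrays after the group means were removed correlated at up to 0.141.

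**Figure D4:**
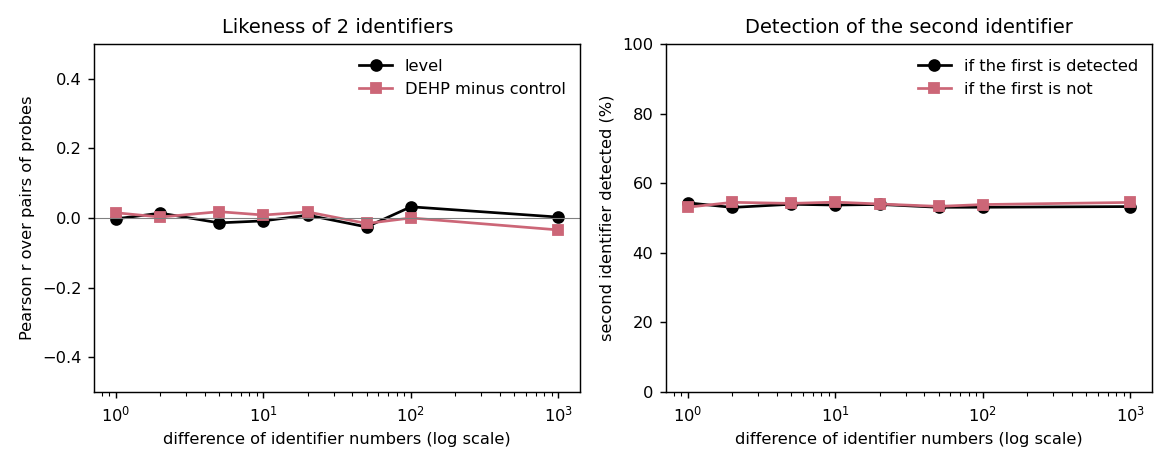
Likeness of DQ7 probes by the difference between their identifier numbers, from 1 to 1000 on a log scale. The left panel gives Pearson's r over pairs of tested probes for mean level and for the DEHP minus control difference, and the right panel the percent of second identifiers detected, by whether the first was. Both correlations stay between −0.0341 and 0.0323 and both shares between 53.0% and 54.6%.

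Called probes were mostly single among consecutive numbers. Of the called increases 526 had no called neighbour in the same direction, 3 runs held 2 probes and 1 held 3. Of the called decreases 923 stood alone, 18 runs held 2, 1 held 3 and 1 held 4. The run of 4 was DQ731287 to DQ731290, with differences of −0.73, −0.56, −0.73 and −0.96. Within slide 1, with 1 control, they were −0.74, −0.34, −0.41 and −0.54. The run of 3 decreases was DQ746085 to DQ746087. DQ746085 measured 4.39, 4.52 and 4.76 in controls and 2.93, 2.65 and 3.17 after DEHP, with the groups far apart. The differences of the 3 probes were −1.64, −1.02 and −0.68, and within slide 1 they were −1.47, −1.15 and −0.81. The pair with the largest mean change was DQ761127 and DQ761128, at −1.46 and −1.77. Within slide 1 their differences were −0.78 and −1.41. No probe of these named runs of decreases passed with the slide as a block (limma, adjusted p = 0.0677 to 0.429).

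The longest run of increases was DQ749706 to DQ749708, at 0.71, 0.82 and 0.81. DQ749707 was detected on all 6 arrays, at 1.37, 1.22 and 1.21 in controls and 2.32, 2.01 and 1.94 after DEHP, and its groups were well apart. The other 2 were missed on 1 control array each. The pairs DQ754772 and DQ754773, at 0.84 and 0.67, and DQ755322 and DQ755323, at 0.68 and 0.81, followed. DQ749706 and DQ754773 did not pass within slide 1 (limma, adjusted p = 0.0585 and 0.153) or after quantile normalization (0.0545 and 0.0662), so neither of their runs was whole there. The longest unbroken run of detected identifiers was 11, from DQ767410 to DQ767420, whose differences ran from −0.42 to 0.95. The longest run of consecutive identifiers that were never detected was 7, from DQ755895 to DQ755901.

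Longer stretches of numbers differed little. In 41 stretches of 1000 numbers the share detected ran from 49.6% in the 765000s to 58.2% in the 728000s. The median level of tested probes ran from −0.57 in the 753000s to −0.14 in the 750000s, and the median difference from −0.03 in the 756000s to 0.09 in the 729000s. Each stretch held 5 to 22 called increases and 14 to 34 called decreases, so that decreases were spread over the whole block. Stretches accounted for 0.268% of the variance of the change and 0.272% of that of the level, where 41 groups of probes without relation would give 0.305%. In stretches of 100 numbers the shares were 3.10% for the change and 2.91% for the level, where unrelated groups would give 3.07%.

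**Figure D5:**
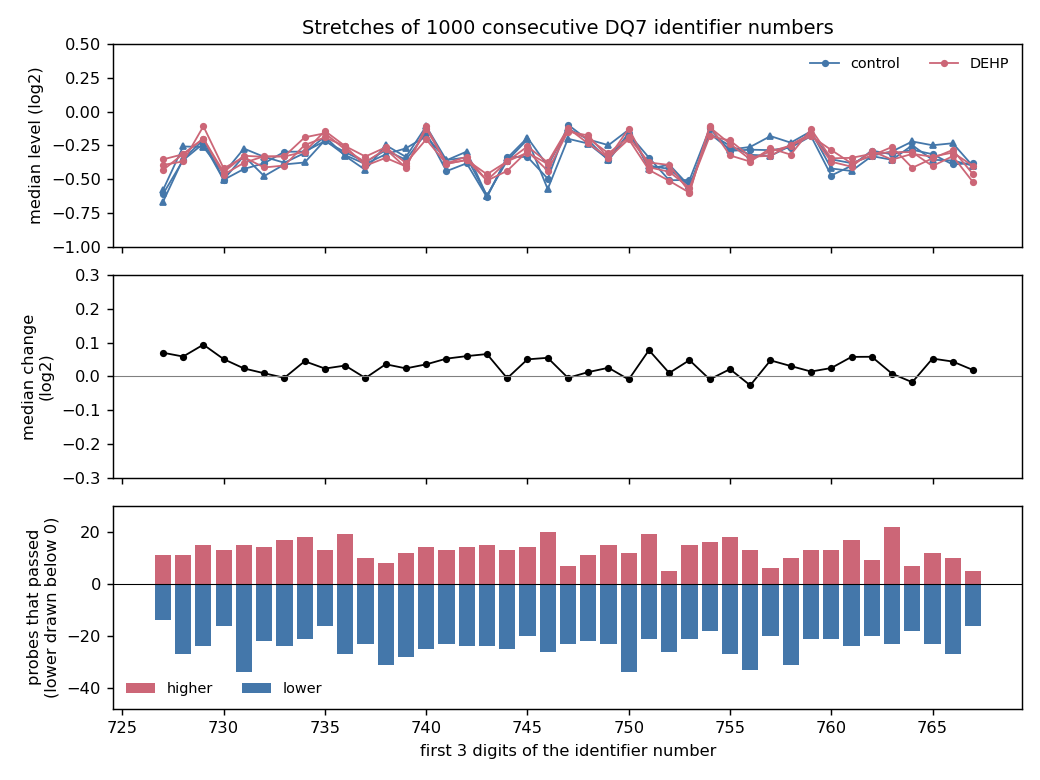
Stretches of 1000 consecutive identifier numbers, ordered by number. The top panel gives the median level of the tested probes on each array (log2, controls blue with triangles for slide 2, DEHP red), the middle panel the median DEHP minus control difference (log2), and the bottom panel the number of probes called higher (above 0) and lower (below 0). The medians of the difference lie between −0.03 and 0.09, and no stretch holds fewer than 14 called decreases.

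Stretches of 100 numbers hold few probes each and ranged more widely. Detection ran from 35.5% of 62 probes in DQ758700 to DQ758799 up to 74.1% of 58 probes in DQ754200 to DQ754299. The next were 37.7% and 37.9% at the low end, in the stretches that begin at 761700 and 752600, and 71.4% and 69.7% at the high end, at 742900 and 732500. By the median difference, the stretch that begins at 760300 was lowest, at −0.26 over 33 tested probes, with 0 called higher and 6 lower. Those at 752000 and 750600 followed at −0.21 each. The highest were the stretches at 734200, 759600 and 746600, at 0.32, 0.30 and 0.26, with 3, 4 and 3 probes called higher and 1 called lower in each. They are the extremes of 402 stretches, and no test was made of them.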

How the data were processed

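Cy3-labelled cRNA of 3 control and 3 DEHP testes was put on one-colour Agilent arrays (the labels' protocols). These were read with Agilent Feature Extraction 11.0.1.1, per the file headers. Deposited spot tables hold a processed intensity, background-subtracted by that software, median spot and background intensities, and other values that are flags of 0 or 1, per the file headers. The authors' deposited value table holds a log2 value per probe, made by steps not given in the sources used here. It served only as an alternative.

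Outlier spots were left out and no spot was saturated. Log2 processed intensity was centred on the 75th percentile of all non-control probes of the array. Probes detected on at least 3 arrays were fitted with limma 3.58.1 in R 4.3.3 (eBayes with trend, two-sided, Benjamini-Hochberg over 23090 probes, threshold 0.05). The procedure was tested on simulated data. Descriptions and plots used Python 3.11.15 and matplotlib 3.10.9. The 6 arrays limit the precision.

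Named probes were the 10 largest decreases and increases detected on all 6 arrays without overlap of groups, the 3 largest bounds each way, the 5 of highest level, the neighbours in number of the 3 largest changes each way, the 3 longest called runs each way, and the extreme stretches. The members, lists and rules were chosen with earlier results of these data known. Alternatives were other scalings, normexp with an offset of 50 (run on the median signal, planned on the mean), other filters, the authors' table, slide and replicate blocks, slide 1 alone, eBayes without trend and each array left out. A filter at all 6 arrays combined with slide 1 alone or with quantile normalization was added after seeing the data.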

Additional observations from a re-analysis of the deposited data

How the results depend on the processing

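The 535 increases became 1309 with the 75th percentile of only the probes that all 6 arrays detected, 341 with a filter at all 6 arrays, 84 with that filter within slide 1, 156 with median centring, 153 without centring, 251 after normexp at the 75th percentile and 0 with the slide as a block. The 966 decreases became 1852 with median centring, 184 without centring and 4 with the slide as a block. With 1 array left out and the probe set kept, increases ran from 10 to 1121 and decreases from 170 to 1544. The other alternatives gave 415 to 712 increases and 718 to 1024 decreases. With the replicate number as a block, increases were 1101 and decreases 1576. Same-numbered arrays had deviations that correlated at 0.130, 0.458 and 0.0765, and differently numbered ones at −0.427 to 0.290. No pairing of the arrays is stated, and whether same-numbered arrays share a factor was not tested. The cause of these shifts was not tested, and whole-array counts are not given beside them, so they mark no trait of the block. A filter also leaves fewer probes, and a left-out array fewer arrays. The median difference of 0.03 was 0.165 with the percentile of probes that all 6 arrays detected, 0.285 without centring, −0.175 after centring on the median, −0.0565 when all 6 arrays had to detect a probe, −0.0195 with that filter and quantile normalization, −0.0609 with it within slide 1, −0.0305 without a filter, −0.0149 and 3.78e-05 after normexp with percentile or quantile scaling, 0.0041 after quantile normalization and 0.0052 in the authors' deposited table. The difference in detected probes was 3648 within slide 1. Neighbours' r of change was −0.0030 in the authors' deposited table and after quantile normalization, 0.0330 when all 6 arrays had to detect a probe and 0.0017 without a filter, and r of level was 0.0203 without a filter. Of 420 values of the 20 largest named changes over 21 alternatives, 356 kept the call and 64 lost it. Of the 64, 19 were with the slide as a block and 29 with 1 array left out. Their direction was largely fixed by their choice as probes whose groups do not overlap. Faint signal limits what can be said of the 9603 probes never above background.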
